A study of Mus musculus with 10 samples.

Results

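Cholesterol synthesis, uptake and efflux was followed through 39 genes in eosinophils sorted from allergic mouse lungs. The members were the rows of the deposited table whose symbol is on a list of sterol enzymes, their SREBP and LXR regulators, and genes of lipid transport, efflux and esterification. All 39 were found among 35725 gene rows, and all 39 passed the low-count filter, which kept 15586 genes. The list was drawn up with earlier results of these data known, and Soat2 was singled out because its difference between the groups had already been seen.

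RNA was sequenced from 10 libraries, 5 of P2ry14-null mice and 5 of wild-type mice (WT; strain C57BL/6J). P2ry14 is a G protein-coupled receptor that senses extracellular UDP-glucose, and the comparison asks which transcripts of these cells differ without it. All mice were male and all went through the same asthma model: 50 µg of ovalbumin with 20 µg of Aspergillus oryzae protease by the oropharyngeal route on repeated occasions, then, 7 days on, an aerosol of 1% ovalbumin, and sorting of lung eosinophils 16 h later. No library comes from mice outside this model, so levels describe eosinophils of challenged lungs only. The labels give no age or littermate status and do not describe the null allele further, nor whether different mice stand behind the libraries. P-values then measure the spread between these libraries, which may be technical.

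Animal cells make cholesterol from acetyl-CoA through the mevalonate pathway, squalene and a series of sterol intermediates. When sterol in the endoplasmic reticulum is low, SCAP carries SREBP proteins to the Golgi for cleavage, and the released factors switch on the synthesis genes; INSIG proteins hold SCAP back when sterol is plentiful. Oxysterols that build up with excess cholesterol activate the LXR receptors, which switch on genes of efflux such as Abca1 and Abcg1 and the ubiquitin ligase gene Mylip. Excess cholesterol is also esterified for storage by the enzymes SOAT1 and SOAT2, of which SOAT1 is found in most cells and SOAT2 is best known from intestine and liver.

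Total counts ran from 67161968 to 185124080 reads per library. P2ry14 stood between 190 and 229 CPM (read counts relative to library size, scaled with TMM factors) in WT and between 21.8 and 24.2 CPM in P2ry14-null libraries. The 6 eosinophil markers fixed for the check (Siglecf, Ccr3, Il5ra, Prg2, Epx and Ear6) summed to 3610 to 4150 CPM in WT and 3730 to 4090 CPM in P2ry14-null libraries. P2ry14-null library 2 stood apart: its 8 alveolar macrophage markers summed to 2170 CPM, against 729 to 855 CPM in the other P2ry14-null libraries and 778 to 1010 CPM in WT. Its 6 alveolar type II cell markers summed to 91.1 CPM, against at most 57.0 CPM elsewhere. Abca3 made up most of this sum in WT, at a mean of 45.4 CPM, and was not highest in library 2. Sftpc, Sftpb, Sftpa1, Lamp3 and Slc34a2 were highest in library 2, with Sftpc at 19.9 CPM against at most 3.06 CPM elsewhere. The 7 B, T and dendritic cell markers summed to 145 CPM there, against at most 45.2 CPM in any other library. The 6 neutrophil markers summed to 3690 to 4630 CPM in WT and 3690 to 5380 CPM in P2ry14-null, with library 4 the highest. Retnlg made up most of this sum, with means of 3780 CPM in WT and 4100 CPM in P2ry14-null. Mean levels in WT were 133 CPM for Cxcr2 and 109 CPM for S100a9. For Ly6g, Mmp8 and S100a8 they were only 1.24, 1.22 and 0.981 CPM. Of the 8 macrophage markers 6 were highest in library 2, and Chil3, a chitinase-like protein, made up most of the sum (1520 CPM, against at most 524 elsewhere). Marco and Krt79 were not: Marco, a scavenger receptor of alveolar macrophages, had 0.0778 CPM in library 2, reached at most 0.142 CPM in any library and was at 0 in P2ry14-null library 3. Fold changes that this library moved most are given with and without it. In sorted bulk samples, fewer cells of a type and less RNA per cell cannot be told apart.

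No member passed the threshold in the comparison of P2ry14-null with WT libraries. edgeR's quasi-likelihood test with Benjamini-Hochberg adjustment over all 15586 genes called 0 of the 39 members, against 6 genes (0.0385%) of all tested and 4 (0.0257%) in the lower direction. At an unadjusted p under 0.05 there were 3 members, Soat2, Lipa and Pmvk, against 4.13% of all genes. DESeq2 called 1 member, Soat2, against 0.134% of the 13421 genes to which it gave an adjusted p. In none of the 39 did the 5 P2ry14-null and the 5 WT libraries separate completely, as 0.648% of all genes did. Of the 39 log2 fold changes (P2ry14-null minus WT), 13 lay below 0, against 48.8% of all genes, and their median was 0.04 against 0.00 for all genes. Fold changes other than that of Soat2 lay between -0.25 and 0.39. The design measured these genes closely: the median standard error was 0.07 over the members and 0.09 over all genes, and for 36 of the 38 members other than Soat2 the whole 95% interval lay within 0.5 of no change on the log2 scale. The exceptions were Abca1 and Nr1h3.

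**Figure D1:**
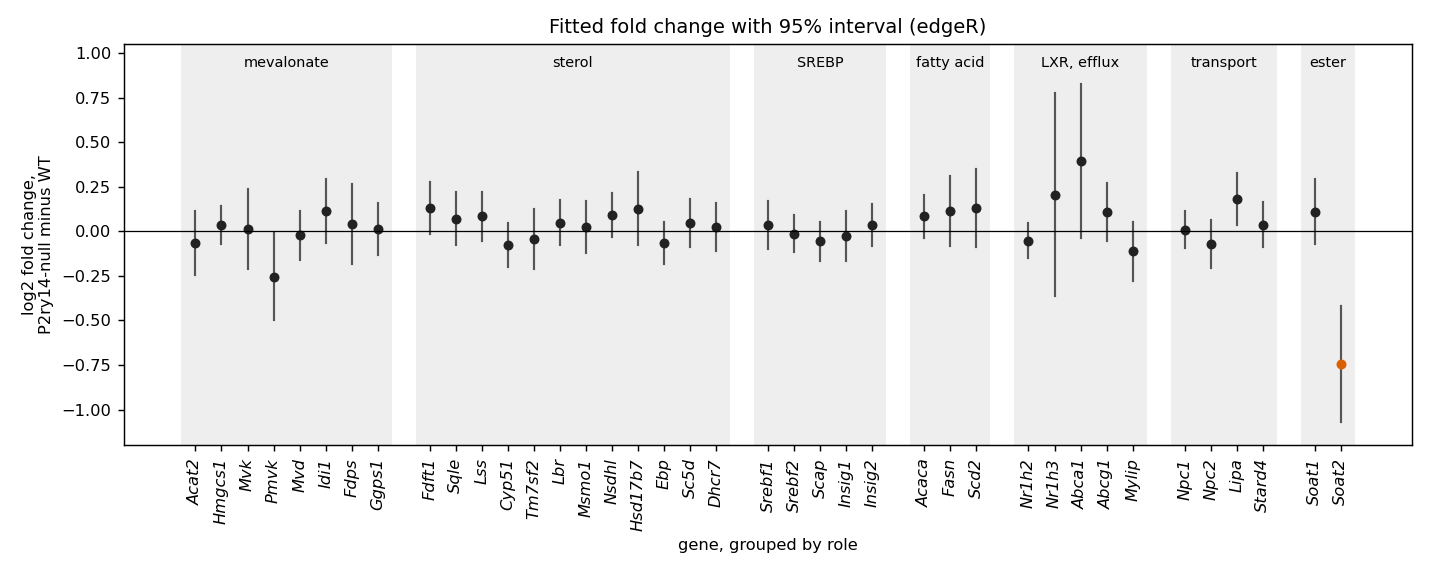
Fitted log2 fold change (vertical axis, P2ry14-null minus WT, edgeR) of each of the 39 genes, grouped by role; points are estimates and bars 95% intervals. Soat2 (orange) lies at -0.74 with an interval from -1.07 to -0.42, and all other estimates lie between -0.25 and 0.39.

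Levels within the pathway differed far more between genes than between genotypes. Per kilobase of exon, which allows genes to be compared, WT levels ran from 0.317 CPM per kb for Nr1h3 to 76.0 for Lbr, and 23 of the 39 members stood above the median of the tested genes that have a length. The 5 regulators of the SREBP system spanned a wide range: Scap, the sterol-sensing escort, had 60.0 ± 3.06 CPM per kb in WT (SD, n = 5) and Srebf2, the factor that drives sterol genes, 50.1 ± 2.30, while Srebf1 had 17.0, Insig1 13.1 and Insig2 6.40. The enzymes spread as widely, with Lbr at 76.0, Ebp at 22.3, Pmvk at 17.2 and Cyp51 at 15.3 above Insig1. The median of the 8 enzymes from Acat2 to Ggps1 was 5.71 CPM per kb, and that of the 12 enzymes from squalene synthesis onward was 5.39. The 3 fatty acid genes stood at 0.843 for Acaca, 2.77 for Fasn and 2.89 for Scd2. The lengths come from a different annotation than the counts may have used, so the order of genes close to each other is uncertain.

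**Figure D2:**
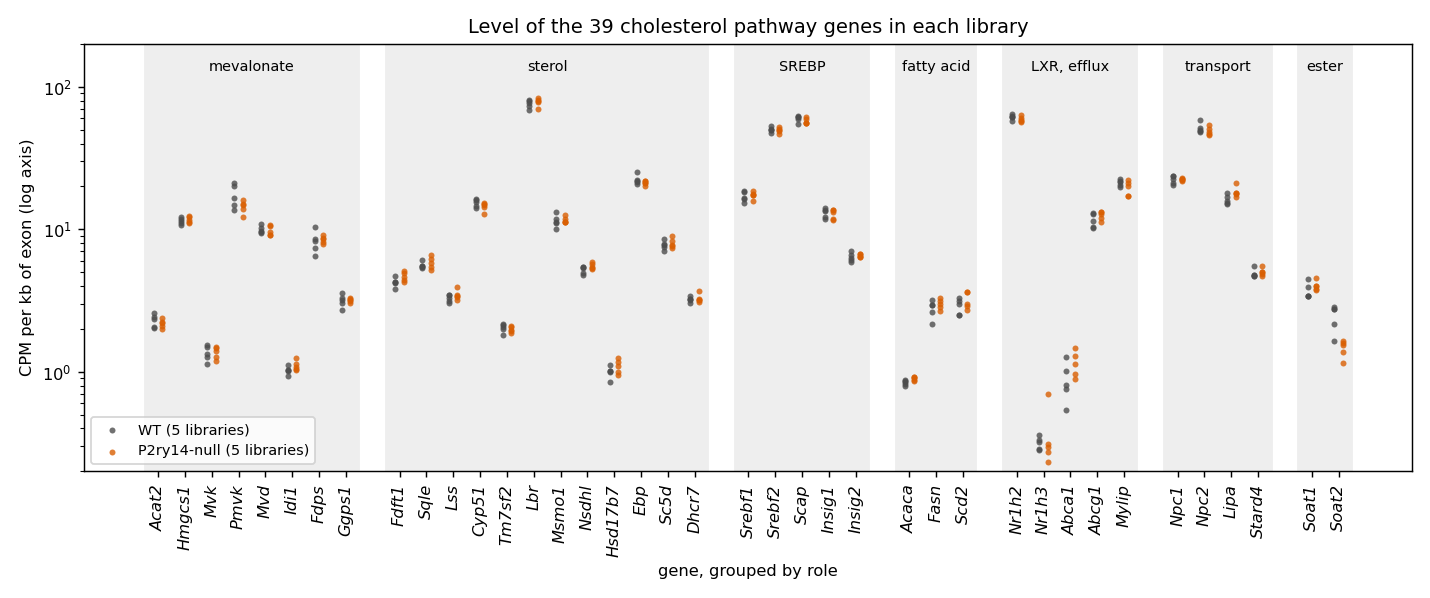
Level of the 39 genes in each of the 10 libraries, in CPM per kb of exon (vertical log axis), by role; each point is 1 library, grey for WT and orange for P2ry14-null. Genes range from about Nr1h3 at 0.317 to Lbr at 76.0 in WT, and within most genes the 2 groups lie on top of each other.

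Among the enzymes of the mevalonate stage, 5 lay above 0 and 3 below, with a median log2 fold change of 0.01 and 0 of 8 past the threshold. Hmgcs1, which makes HMG-CoA and is a standard readout of SREBP2, stood at 41.0, 39.9, 42.3, 38.4 and 37.5 CPM in WT libraries 1 to 5. In P2ry14-null libraries 1 to 5 it stood at 43.1, 38.7, 40.3, 39.5 and 42.5 CPM. The groups overlap over nearly their whole range, and the log2 fold change was 0.04 ± 0.05 (SE; 95% interval -0.07 to 0.14).

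The 250 bases before the Hmgcs1 start are printed because they hold a sterol regulatory element core. Those of Insig1, a second SREBP readout, and of Abca1, an LXR readout, stand beside them. Sequences are from RefSeq on GRCm38.p6, the assembly behind mm10, at chr13:119690101-119690350 on the plus strand for Hmgcs1, chr5:28071162-28071411 on the plus strand for Insig1 and chr4:53159896-53160145 on the minus strand for Abca1. Capitals mark matches on either strand to a sterol regulatory element core (TCACNCCAC), an NF-Y box (CCAAT), a GC box (GGGCGG) or an E-box (CACGTG).
Hmgcs1: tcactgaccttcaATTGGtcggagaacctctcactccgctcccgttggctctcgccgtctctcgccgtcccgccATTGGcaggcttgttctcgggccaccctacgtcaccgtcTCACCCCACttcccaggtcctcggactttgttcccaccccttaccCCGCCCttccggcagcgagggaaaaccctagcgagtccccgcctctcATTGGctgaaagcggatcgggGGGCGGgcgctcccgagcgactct
Insig1: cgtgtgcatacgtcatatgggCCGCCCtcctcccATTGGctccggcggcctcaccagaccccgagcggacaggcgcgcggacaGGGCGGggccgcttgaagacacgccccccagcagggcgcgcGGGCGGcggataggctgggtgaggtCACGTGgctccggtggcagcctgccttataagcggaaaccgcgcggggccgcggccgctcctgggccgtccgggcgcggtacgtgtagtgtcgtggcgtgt
Abca1: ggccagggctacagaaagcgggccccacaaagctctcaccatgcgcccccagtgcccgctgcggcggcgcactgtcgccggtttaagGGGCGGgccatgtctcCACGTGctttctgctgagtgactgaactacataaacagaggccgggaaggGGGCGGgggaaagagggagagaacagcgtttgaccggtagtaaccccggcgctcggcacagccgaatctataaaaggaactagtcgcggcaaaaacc

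Hmgcs1 holds the core 137 bases before its start, between NF-Y boxes at 176 and 45 bases. The table of promoters held 31 of the 39 members; Abcg1, Fdft1, Fdps, Npc1, Scd2, Soat2, Sqle and Stard4 were not matched. The core was found in 1 of the 31, Hmgcs1, against 1.22% of all genes searched. Of the 15 SREBP2 target genes among the 31, only this 1 held it, and Insig1 did not. NF-Y boxes were found in 25 of the 31 (37.5% of all genes), GC boxes in 23 (35.4%) and E-boxes in 6 (6.86%). An exact repeat of AGGNCA with 4 bases between the copies, an arrangement that LXR binds, was found in 0 of the 31 (0.244%). Repeats with other letters were not searched for, so LXR elements may be missed, in the Abca1 window too. Matches describe the letters of these windows only.

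Pmvk, the phosphomevalonate kinase, had the lowest estimate of the synthesis genes. It stood at 36.0, 28.4, 23.4, 34.3 and 25.3 CPM in WT libraries 1 to 5. P2ry14-null libraries 1 to 5 held 27.3, 24.0, 21.1, 25.8 and 25.4 CPM of it. WT libraries 1 and 4 stand above the rest, while the other 3 lie within or near the P2ry14-null range, and the fitted log2 difference was -0.25 ± 0.11 (SE; adjusted p = 0.999 in edgeR). The remaining enzymes of this stage had log2 fold changes of -0.07 for Acat2 (acetoacetyl-CoA thiolase), 0.01 for Mvk (mevalonate kinase), -0.02 for Mvd (the decarboxylase), 0.11 for Idi1 (isopentenyl diphosphate isomerase), 0.04 for Fdps (farnesyl diphosphate synthase) and 0.01 for Ggps1, which makes the geranylgeranyl group used to anchor small GTPases. Reads of Hmgcs1 and Fdps may be shared with annotated neighbours, since 12.1% and 26.7% of their exon bases overlap Gm48342 and Gm43738. Mean levels of these 6 enzymes in WT ran from 2.72 CPM for Mvk to 17.5 CPM for Mvd.

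From squalene to cholesterol, 9 of 12 genes lay above 0 with a median of 0.05, and 0 of 12 passed. Sqle, squalene epoxidase and an early rate-limiting step of this branch, stood at 16.7, 15.3, 15.1, 15.2 and 14.8 CPM in WT libraries 1 to 5. It stood at 17.1, 16.1, 15.0, 14.3 and 18.3 CPM in P2ry14-null libraries 1 to 5. The P2ry14-null values span the WT range on both sides (log2 fold change 0.07 ± 0.07).

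Fdft1, squalene synthase, stood at 15.6, 17.4, 14.1, 15.9 and 15.8 CPM in WT libraries 1 to 5. In P2ry14-null libraries 1 to 5 it had 18.2, 17.2, 15.7, 16.3 and 18.9 CPM. The ranges overlap, with P2ry14-null libraries 1 and 5 the highest of the 10 (0.13 ± 0.07). In the annotation 774 of its 4227 exon bases (18.3%) also belong to Ctsb on the opposite strand, and without a known strand setting reads of both cannot be told apart. Nsdhl, a sterol dehydrogenase of C4 demethylation, stood at 10.4, 11.7, 10.8, 11.8 and 11.5 CPM in WT libraries 1 to 5. P2ry14-null libraries 1 to 5 gave 12.4, 12.8, 11.5, 11.4 and 11.8 CPM for Nsdhl. P2ry14-null libraries 1 and 2 are the highest of the 10, and the other 3 lie within the WT range (0.09 ± 0.06).

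The other sterol enzymes lay between -0.08 and 0.13. Cyp51, the lanosterol demethylase, had 60.0 ± 3.58 CPM in WT and 56.9 ± 3.81 CPM in P2ry14-null (SD, n = 5 each; log2 fold change -0.08). The cyclase Lss was at 0.08, and Msmo1 and Hsd17b7, which act with Nsdhl in C4 demethylation, were at 0.02 and 0.13. Log2 fold changes were -0.07 for the isomerase Ebp, 0.05 for the desaturase Sc5d and 0.02 for Dhcr7, the last reductase of the pathway.

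The C14 reductase step is served by a pair of genes. Lbr, which also anchors chromatin at the nuclear envelope, had 267 ± 16.9 CPM in WT and 276 ± 17.9 CPM in P2ry14-null, while Tm7sf2 had 3.44 ± 0.24 and 3.34 ± 0.158 CPM (SD, n = 5 each). Per kilobase Lbr stood 37.5 ± 2.36 times as high as Tm7sf2 in WT and 39.8 ± 1.77 times in P2ry14-null libraries. A part of the Tm7sf2 exons (12.1%) is shared with Vps51 on the same strand.

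The regulators of SREBP did not differ beyond the spread of the libraries, with fold changes between -0.06 and 0.04 and 0 of 5 past the threshold. Srebf2 stood at 251, 256, 239, 272 and 253 CPM in WT libraries 1 to 5. It had 248, 255, 265, 236 and 254 CPM in P2ry14-null libraries 1 to 5. The ranges are nearly the same (log2 fold change -0.01 ± 0.05). Srebf1, whose SREBP-1 products favour fatty acid genes and which is itself an LXR target, stood at 71.4, 79.8, 65.5, 78.8 and 69.4 CPM in WT libraries 1 to 5. P2ry14-null libraries 1 to 5 had 79.9, 74.2, 75.3, 68.2 and 76.6 CPM of Srebf1. Both groups again cover the same range (0.04 ± 0.06).

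Insig1, an SREBP target that feeds back on SCAP, stood at 36.1, 36.6, 33.0, 38.2 and 32.2 CPM in WT libraries 1 to 5. It stood at 31.9, 31.5, 35.8, 36.9 and 36.6 CPM in P2ry14-null libraries 1 to 5. Each group holds 2 low libraries and 3 higher ones, at the same levels (-0.03 ± 0.06). Insig2, its paralog, was at 0.03 and Scap, which shares 13.2% of its exon bases with 5830462I19Rik on the opposite strand, at -0.06. Per kilobase, Srebf2 stood 2.96 ± 0.156 times as high as Srebf1 in WT and 2.85 ± 0.138 times in P2ry14-null, and Insig1 2.05 ± 0.24 times as high as Insig2 in WT and 1.96 ± 0.148 times in P2ry14-null libraries (SD, n = 5 each). All 3 fatty acid genes lay above 0, at 0.08 for Acaca (acetyl-CoA carboxylase), 0.11 for Fasn (fatty acid synthase) and 0.13 for the desaturase gene Scd2, with 0 of 3 past the threshold. Scd2 was at 0.08 without P2ry14-null library 2.

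Of the LXR receptors, these eosinophils carried Nr1h2 (LXR beta). It stood at 129, 126, 116, 124 and 124 CPM in WT libraries 1 to 5. Nr1h2 had 121, 114, 128, 117 and 116 CPM in P2ry14-null libraries 1 to 5. The groups overlap (log2 fold change -0.05 ± 0.05).

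Nr1h3 (LXR alpha), the form of macrophages, liver and fat, had the lowest level of the 39 members. WT libraries held 0.694, 0.779, 0.612, 0.716 and 0.607 CPM of it in the order 1 to 5. P2ry14-null libraries 1 to 5 held 0.637, 1.5, 0.584, 0.497 and 0.673 CPM. Library 2, the one with high macrophage markers, stands far above every other P2ry14-null library, and the rest lie in or just below the WT range. The log2 fold change was 0.20 ± 0.26 with that library and -0.19 ± 0.14 without it. Per kilobase, Nr1h2 stood 196 ± 17.3 times as high as Nr1h3 in WT libraries (SD, n = 5), and between 81.7 and 253 times in P2ry14-null libraries.

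The LXR targets did not share a direction. Abca1, the cholesterol exporter that loads apolipoprotein A-I, stood at 5.50, 8.23, 13.1, 7.80 and 10.4 CPM in WT libraries 1 to 5. In P2ry14-null libraries 1 to 5 it stood at 11.7, 13.2, 9.08, 15.2 and 9.96 CPM. WT library 1 is the lowest and P2ry14-null library 4 the highest, and 3 of the 5 P2ry14-null libraries lie within the WT range. The log2 fold change was 0.39 ± 0.20 (95% interval -0.04 to 0.83; edgeR adjusted p = 0.999) and 0.35 without P2ry14-null library 2.

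Abcg1, which exports cholesterol to HDL, stood at 70.4, 78.5, 88.4, 71.3 and 88.7 CPM in WT libraries 1 to 5. It had 82.2, 91.1, 87.3, 90.6 and 77.2 CPM in P2ry14-null libraries 1 to 5. The ranges overlap (0.11 ± 0.08). Mylip, which marks lipoprotein receptors for degradation, stood at 70.7, 66.5, 72.4, 63.5 and 69.3 CPM in WT libraries 1 to 5. It had 65.1, 55.4, 68.8, 72.2 and 55.1 CPM in P2ry14-null libraries 1 to 5. P2ry14-null libraries 2 and 5 are the lowest of the 10 and the other 3 lie within the WT range (-0.11 ± 0.08).

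For the transport genes, Lipa had the second smallest p of the members. It encodes lysosomal acid lipase, which frees cholesterol from lipoprotein esters. Lipa stood at 45.5, 44.4, 53.0, 47.0 and 50.2 CPM in WT libraries 1 to 5. It stood at 53.7, 63.2, 50.1, 53.1 and 52.1 CPM in P2ry14-null libraries 1 to 5. Library 2 is the highest, and WT libraries 3 and 5 reach into the range of the other P2ry14-null libraries. The log2 fold change was 0.18 ± 0.07 with all libraries and 0.12 ± 0.06 without library 2 (edgeR adjusted p = 0.999 with all libraries). Npc1 and Npc2, which pass freed cholesterol out of the lysosome, were abundant at 116 ± 7.32 and 170 ± 13.6 CPM in WT (SD, n = 5 each), with log2 fold changes of 0.01 and -0.07. Stard4, a cytosolic sterol carrier and SREBP2 target, was at 0.04.

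**Figure D3:**
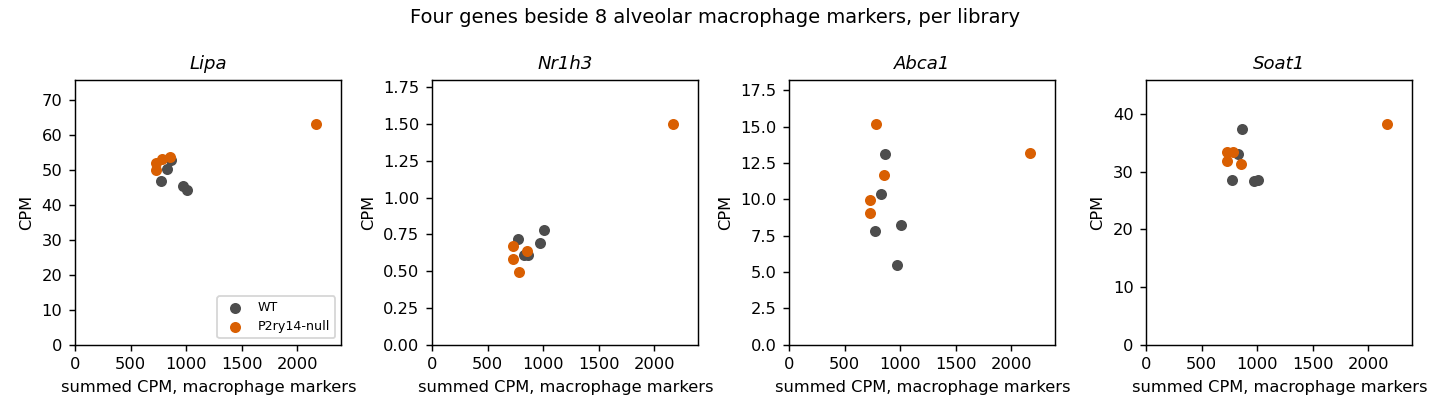
CPM of Lipa, Nr1h3, Abca1 and Soat1 (vertical axes, from 0) against the summed CPM of 8 alveolar macrophage markers (horizontal axis), 1 point per library, grey for WT and orange for P2ry14-null. P2ry14-null library 2, at 2170 summed CPM, is the point far to the right and holds the highest Lipa (63.2), Nr1h3 (1.5) and Soat1 (38.3), but not the highest Abca1.

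The part of macrophages in these differences was not tested. Without library 2, the estimate of Soat1 moved from 0.11 to 0.06, while that of Soat2 was -0.74 with the library and -0.72 without it.

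Soat2 had the smallest p of all 39 members, with a lower mean in P2ry14-null libraries; it did not pass the edgeR threshold. It encodes a sterol O-acyltransferase that joins cholesterol to fatty acids for storage or secretion, and lies on chromosome 15 at 102150415 to 102163436 of mm10 (gene ID 223920, plus strand). It shares 0 exon bases with any other gene of the annotation. WT libraries held 6.11, 4.75, 6.13, 3.65 and 6.28 CPM of Soat2 in the order 1 to 5. P2ry14-null libraries 1 to 5 held 3.50, 3.02, 3.38, 2.54 and 3.65 CPM. Library 4 is the low one in WT, at 3.652 CPM, and it lies just under the highest P2ry14-null library, number 5 at 3.654 CPM, so the groups touch and the other 4 WT libraries lie above all P2ry14-null ones. Values rest on 236 to 1112 reads per library.

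The mean of Soat2 was 5.38 ± 1.15 CPM in WT and 3.22 ± 0.445 CPM in P2ry14-null (SD, n = 5 each). The fitted log2 difference was -0.74 ± 0.15 (SE; adjusted p = 0.400 in edgeR), a level of 59.7% of WT with a 95% interval on the log2 scale from -1.07 to -0.42. A two-sided exact permutation test over the 252 assignments of libraries gave p = 0.016, where 0.0079 is the smallest possible, and because Soat2 was singled out for its difference this p is a description. DESeq2 gave an adjusted p of 0.0014 for the same fold change, so the call is not stable across the analyses run. In edgeR the adjusted p lay between 0.051 (without WT library 4) and 0.943 (without WT library 5) when single libraries were left out, with fold changes from -0.85 to -0.67.

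Its paralog Soat1, the esterification enzyme of most cells, had an estimate on the other side of 0. Soat1 stood at 28.4, 28.5, 37.5, 28.5 and 33.0 CPM in WT libraries 1 to 5. It had 31.4, 38.3, 33.4, 33.4 and 31.8 CPM in P2ry14-null libraries 1 to 5. The groups overlap, with the fold change at 0.11 ± 0.08. Per kilobase of exon, and largely restating the Soat2 difference, Soat2 reached 65.5% ± 12.3 of the Soat1 level in WT and 36.6% ± 6.86 in P2ry14-null (SD, n = 5 each), with ranges of 48.7% to 81.5% and 28.9% to 43.6%. These ranges do not overlap, whereas those of Soat2 itself do, if only at 3.652 and 3.654 CPM. Of all genes, 0.648% separated completely on their own CPM, and no such share is given for ratios of genes.

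Set beside targets of SREBP2 and LXR, the Soat2 estimate lay below that of every gene on either list in the fit of all libraries. Of 19 SREBP2 target genes 6 lay below 0, with a median of 0.04 and a lowest value of -0.25 for Pmvk. Of 9 LXR target genes (Abca1, Abcg1, Mylip, Srebf1, Lpcat3, Arl4c, Smpdl3a, Pltp and Lpl) 3 lay below 0, with a median of 0.07 and a lowest value of -0.11 for Mylip. Without P2ry14-null library 2 the LXR median turned to -0.01 with 5 of 9 below 0, and the SREBP2 median was 0.04 with 7 of 19 below 0. None of either list passed the threshold. Within each library, Soat2 was then expressed relative to a readout gene, as a difference of log2 CPM, and the mean difference between the groups (P2ry14-null minus WT) was taken. It was -0.76 relative to Hmgcs1, -0.79 relative to Sqle, -0.69 relative to Insig1, -1.15 relative to Abca1, -0.84 relative to Abcg1, -0.60 relative to Mylip and -0.84 relative to Soat1. Relative to Hmgcs1, Sqle, Abca1, Abcg1 and Soat1 all 5 WT libraries lay above all P2ry14-null ones, and relative to Insig1 and Mylip 4 of 5 did. These 7 comparisons share the same Soat2 values and largely restate its difference, since its groups touch only at 3.652 and 3.654 CPM. Of all genes, 0.648% separated completely on their own CPM, and no such share is given for differences between genes. The 7 comparisons were chosen after the values were seen and carry no test.

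**Figure D4:**
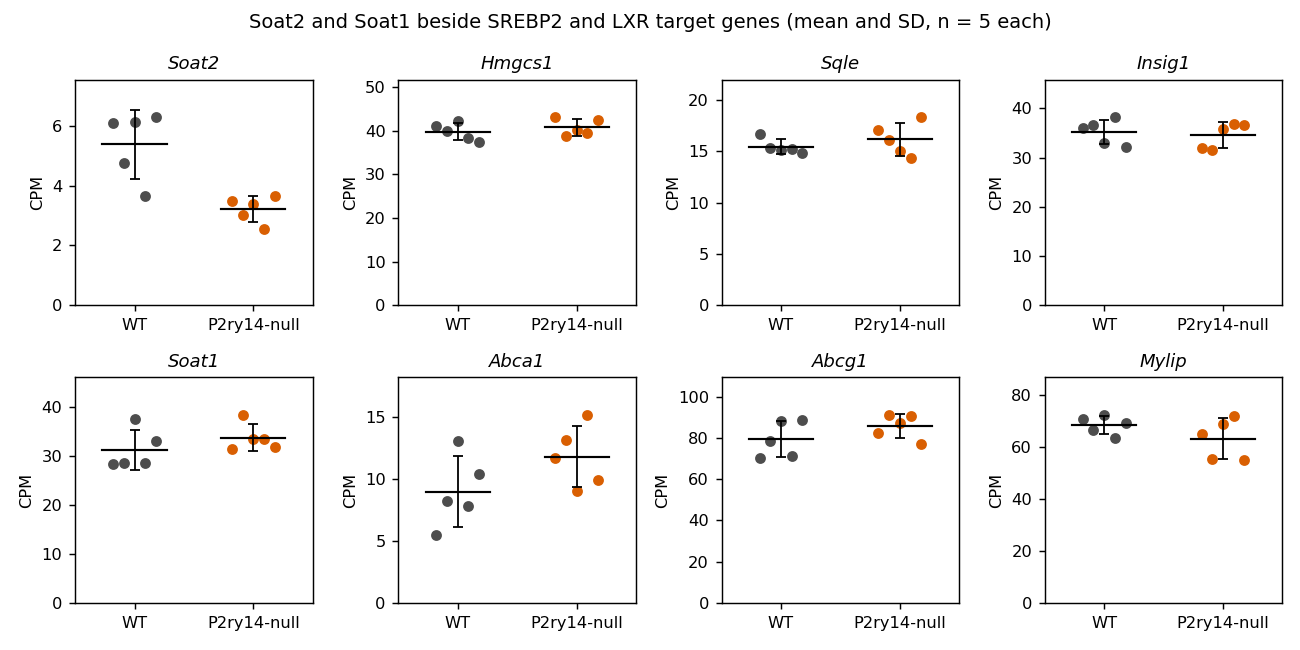
CPM (vertical axes, from 0) of Soat2, the SREBP2 targets Hmgcs1, Sqle and Insig1, the paralog Soat1, and the LXR targets Abca1, Abcg1 and Mylip in WT (grey) and P2ry14-null (orange) libraries; lines and bars are mean and SD, n = 5 each. Soat2 has means of 5.38 and 3.22 CPM and groups that touch at 3.652 and 3.654 CPM, and the other 7 genes overlap between the groups.

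From library to library within a genotype, no relation of Soat2 to a target of either class passed the threshold. Log2 CPM with group means removed was correlated across the 10 libraries for 8 genes, with exact permutations within groups. Pearson's r was 0.49 for Hmgcs1 (permutation p = 0.178, Spearman's rho = 0.31, permutation p = 0.448), 0.44 for Sqle (p = 0.156, rho = 0.20, p = 0.527) and -0.54 for Insig1 (p = 0.124, rho = -0.60, p = 0.0676). The 3 SREBP2 readouts stood on both sides of 0. It was -0.07 for Abca1 (permutation p = 0.864, rho = 0.09, p = 0.831), 0.18 for Abcg1 (p = 0.726, rho = 0.30, p = 0.483) and 0.08 for Mylip (p = 0.806, rho = 0.06, p = 0.861). Adjusted over the 8 relations, the permutation p was 0.279 or more for every r and 0.398 or more for every rho. Without the 2 libraries farthest from the median of each gene, r was 0.38 for Hmgcs1, 0.15 for Sqle, -0.61 for Insig1, -0.11 for Abca1, -0.18 for Abcg1 and 0.43 for Mylip.

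Mast cell and basophil markers had lower estimates in P2ry14-null libraries, as Soat2 had. All 7 of 7 markers lay below 0, with a median of -0.47 and 0 past the threshold. Their sum was 99.5 to 115 CPM in WT and 69.2 to 90.5 CPM in P2ry14-null. Gata2, Hdc and Kit made up most of it, at means of 46.8, 46.0 and 11.5 CPM in WT. Cpa3, Fcer1a, Ms4a2 and Mcpt8 had only 0.568, 0.395, 0.585 and 0.49 CPM in WT, so the sum says little about them. Library 4 of each group had the highest sum of its group (115 and 90.5 CPM) and the lowest Soat2. The single markers did not all follow the sum. Among P2ry14-null libraries, number 4 was the highest for Hdc, Ms4a2 and Mcpt8, but not for Cpa3, Fcer1a, Kit or Gata2. In WT, Cpa3 was highest in library 3, at 0.667 CPM against 0.64 CPM in library 4. Of these markers 0 were at 0 in any library. Hdc, which makes histamine, had 49.2, 43.5, 41.2, 56.7 and 39.2 CPM in WT libraries 1 to 5. It had 29.2, 23.9, 30.8, 39.3 and 23.1 CPM in P2ry14-null libraries 1 to 5. Library 4 is the highest of each group for Hdc too. The correlation of Soat2 with Hdc within groups was -0.66 (permutation p = 0.0349, adjusted over the 8 relations 0.279; rho = -0.52, permutation p = 0.0996) and rests on these 2 libraries, since r was -0.01 without them. With the cytokine gene Il6 it was -0.14 (permutation p = 0.687; rho = -0.06, p = 0.886; r = -0.15 without 2 libraries). The part of mast cells or basophils in the Soat2 difference was not tested.

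**Figure D5:**
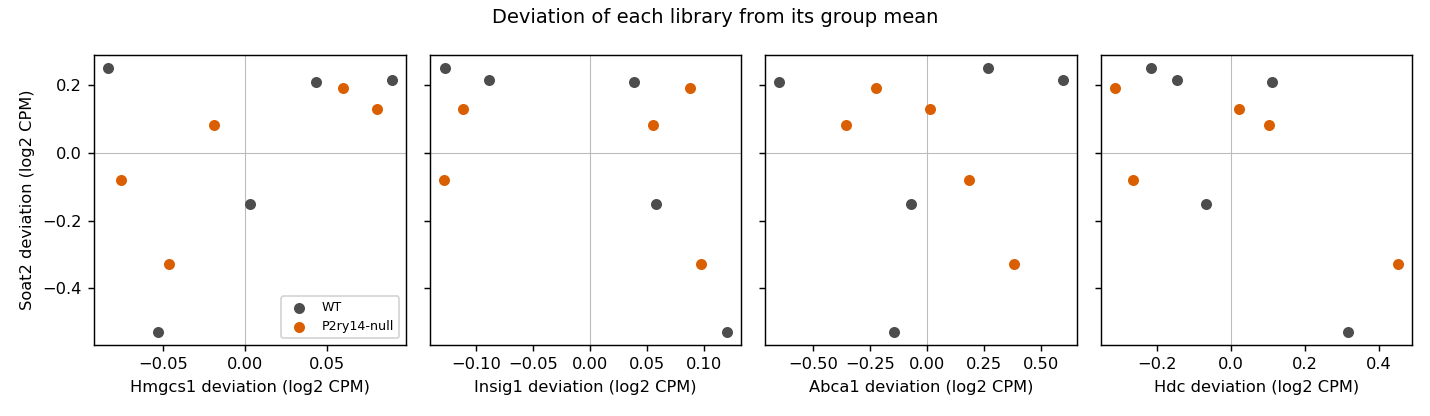
Deviation of each library from its group mean, in log2 CPM, for Soat2 (vertical axis) against Hmgcs1, Insig1, Abca1 and Hdc (horizontal axes), grey for WT and orange for P2ry14-null, n = 10 libraries. Pearson's r is 0.49, -0.54, -0.07 and -0.66 in this order, and the 2 libraries numbered 4 make up the lower right of the Hdc plot.

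Log2 fold changes of the other genes of the pathway ran from -0.28 for Vldlr to 0.67 for Me1. Both of these genes had low levels, with means of 0.103 and 0.0877 CPM in WT. Of 56 further genes listed, 54 passed the low-count filter, 0 were called in either direction, and 22 lay below 0 with a median of 0.01, and leaving out P2ry14-null library 2 made this 30 and -0.01. Library 2 was the highest of the 10 for 13 of these 54 genes and for 8 of the 39 members. Among 16 tested synthesis and SREBP target genes, those with the smallest p were Rdh11, a retinol dehydrogenase (60.5 CPM in WT and 55.3 in P2ry14-null, log2 fold change -0.13), and Gpam, which starts glycerolipid synthesis (5.73 and 6.63 CPM, 0.21). Among 9 genes of SREBP processing they were Syvn1, a ubiquitin ligase (-0.07), and Mbtps2, the site-2 protease that releases SREBP (0.09). Among 14 uptake and transport genes they were Gramd1a (-0.09) and Stard3 (-0.05), both sterol transfer proteins. Among 15 tested LXR, efflux, oxysterol and storage genes they were Ch25h, cholesterol 25-hydroxylase (0.56, and -0.22 without library 2), and Nceh1, an ester hydrolase (0.07). Ch25h had 2.89 CPM in P2ry14-null library 2 and at most 0.893 CPM in any WT and 0.711 CPM in any other P2ry14-null library. Lipoprotein lipase Lpl had 22.2 CPM in that library against at most 9.57 in WT and 8.09 in the other P2ry14-null libraries, and phospholipid transfer protein Pltp 6.46 against at most 2.56 and 2.57. The estimates of Lpl and Pltp were 0.26 and 0.37 with library 2 and -0.28 and -0.14 without it. The same held for Scd1, a fatty acid desaturase (0.35 and -0.38), and the scavenger receptors Cd36 (0.21 and -0.23) and Msr1 (0.27 and -0.07). Me1, malic enzyme, was at 0.67 with it and 0.12 without it. That library also stood apart in the summed macrophage, alveolar type II, and B, T and dendritic cell markers, the last mostly H2-Eb1 and H2-Ab1. The part of any of these cells was not tested.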

How the data were processed

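Whole-number read counts per gene for 10 libraries were used as the authors deposited them, in 1 table with mm10 coordinates. STAR 2.5, featureCounts 1.5.0-p1 from Subread, and DESeq2 are listed per the submitters' processing notes. Not given in the sources used here: annotation, strand setting, multi-mapping reads. Columns were matched to samples by title. For all 20 pairs of libraries within a group, a chi-square over genes gave at least 24.2 per gene, so each was counted once.

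edgeR 4.0.16 (R 4.3.3) was fitted to all 15586 genes kept by its default low-count filter, with TMM factors and genotype alone, and checked on simulated data. In each simulated class 50 genes were changed. The fit recovered 24% at 1.25 fold, 56% at 1.5 fold, 82% at 2 fold and 94% at 4 fold, so small changes were often missed. Of the calls 3.03% were false. More genes were changed there than the 6 called in these data. Adjustment was by Benjamini-Hochberg with a threshold of 0.05. Log2 CPM used a prior count of 2. A count of 3 reads, the limit that a count of 0 allows, equals 0.0165 to 0.0445 CPM (counting error only). Exon lengths were taken from GENCODE vM21 and matched 90.4% of tested genes. Members and gene lists were chosen with earlier results of these data known. Values in every library were printed for 12 genes of set roles and the 6 members with the smallest p. Alternatives were RLE factors, DESeq2 1.42.0, no filter, a replicate block, a prior count of 0.5 and leaving out single libraries.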

Additional observations from a re-analysis of the deposited data

Results flagged for a closer look

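Within each group of 5 libraries, the most extreme value of each member was compared with its nearest neighbour, relative to the range of the group. Of 78 such groups 7 held a library that stood apart, where chance gives about 5%. By this rule P2ry14-null library 2 stood apart for 4 genes, each time as the highest of its group. These were Nr1h3 at 1.5 CPM (next 0.673), Lipa at 63.2 CPM (next 53.7), Soat1 at 38.3 CPM (next 33.4) and Dhcr7 at 12.3 CPM (next 10.7). The same library holds the high macrophage and alveolar type II cell markers, and their part in these values was not tested. WT library 1 stood apart as the highest of its group for Sqle at 16.7 CPM (next 15.3) and for Npc2 at 194 CPM (next 169). WT library 3 stood apart as the highest for Stard4 at 28.8 CPM (next 24.8).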

How the results depend on the processing

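Soat2 kept its direction in all 15 alternatives, at log2 fold changes from -0.849 to -0.669, and 0 to 1 members passed. With DESeq2 1 member, Soat2, passed (-0.743, adjusted p = 0.0014) and 18 genes in all. With RLE factors or without the low-count filter 0 members and 6 genes passed. The replicate numbers of the titles do not pair the libraries (correlations of same-numbered deviations from -0.0933 to 0.0940; 2 of 10 libraries correlated best with their own number). With the replicate block, edgeR gave -0.725 for Soat2 (adjusted p = 0.0239), 1 member and 6 genes past the threshold. DESeq2 with that block, chosen after seeing the data, gave -0.725 (adjusted p = 7.38e-08), 1 member and 41 genes. The causes of these differences between tools and designs were not tested. With single libraries left out 0 members, 3 to 5 genes (3 without P2ry14-null library 1, 2, 3 or 5 or WT library 4) and 12 to 16 members below 0 were counted. Of the 38 other members 11 changed sign in some such fit, none with more than 0.205 on the log2 scale with all libraries: Dhcr7 (-0.023 to 0.046), Fdps (-0.033 to 0.138), Ggps1 (-0.032 to 0.060), Insig1 (-0.058 to 0.010), Msmo1 (-0.019 to 0.078), Mvd (-0.057 to 0.012), Mvk (-0.048 to 0.061), Npc1 (-0.019 to 0.030), Nr1h3 (-0.188 to 0.331), Srebf1 (-0.001 to 0.071), Srebf2 (-0.035 to 0.017). Npc1 was at -0.001 with no low-count filter. The relation of Soat2 with Abcg1 turned from 0.176 to -0.180 without 2 libraries. A prior count of 0.5 moved no level by more than 1 SD. Intervals of Nr1h3 and Abca1 are too wide to place them within 0.5 of no change. The standard error of Soat2 was 0.151 with all libraries and 0.120 without WT library 4.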
